A study of Homo sapiens with 6 samples.

Results

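HEXIM1, HEXIM2, LARP7, MEPCE, BRD2, BRD3 and SERTAD1 were followed in the RNA of a human colon cancer line before, during and after auxin treatment of cells with degron-tagged ENL. The 7 genes were taken from the deposited expression table by exact gene symbol, each symbol being listed once, and make up 7 of its 31628 genes. The first 4 encode proteins of the 7SK complex, BRD2 and BRD3 encode BET proteins, and SERTAD1 encodes a cell cycle regulator. All 7 passed the filter on low values, a mean of at least 1 FPKM (reads scaled to gene length and library size) over the 6 libraries, which left 8317 genes.

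The positive transcription elongation factor P-TEFb, the kinase CDK9 with a cyclin T, releases RNA polymerase II from its pause near promoters. In the cell much of it is held inactive on the small nuclear RNA 7SK by HEXIM1 or HEXIM2, while LARP7 binds the end of 7SK and MEPCE caps the RNA. BET proteins, BRD2 and BRD3 among them, bind acetylated histones through their bromodomains. HEXIM1 RNA is widely used as a readout of BET inhibitors. ENL, encoded by MLLT1, also binds acetylated histones and belongs to the super elongation complex, which holds P-TEFb too.

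All 6 libraries came from HCT116 cells that carry an auxin-inducible degron on ENL and stably express AtAFB2, a plant protein that hands auxin-bound degrons to a ubiquitin ligase. Control cells received no auxin, the IAA group received the auxin IAA for 3 h at 500 um as the labels write the dose, and the washout group received the same treatment, was washed with PBS and was then cultured for 48 h. Each group has 2 libraries. Degron clones were selected with puromycin and blasticidin, but whether the cells were 1 clone is not stated in the labels. They also leave out whether replicates were separate cultures, so p-values measure only the spread between these libraries. No group is untagged or lacks AtAFB2, so an effect of IAA and an effect of ENL loss cannot be told apart. CYP1A1, a target of the aryl hydrocarbon receptor, averaged 0.543 ± 0.0733 FPKM in control, 27.1 ± 1.99 in the IAA group and 0.538 ± 0.0474 in the washout group (SD, n = 2 each), and its part in the results was not tested.

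The FPKM divide by library totals of 16442840 to 16770850 reads, as inferred from the values, and 18474 to 18853 genes per library were above 0. MLLT1 had 402 to 480 reads in every library. The degron acts on the protein, so this RNA does not check the labels. All 7 epithelial markers were above the filter, and 0 of 13 matched fibroblast, endothelial and blood markers were. The summed FPKM of the epithelial markers was 336 to 346 in control, 268 to 272 with IAA and 324 to 340 after washout. Most of this sum is KRT18 and KRT19. With IAA limma called KRT8, KRT18 (not with no filter on low values) and KRT19 lower and 0 of the 7 higher. Voom called these and EPCAM lower, CDX2 (1.34-fold) and VIL1 (1.24-fold) higher, and not CDH1 (1.01 times its control FPKM). The part of these changes in the results was not tested. In bulk RNA fewer cells with a transcript and less of it per cell cannot be told apart. Of 21 alternative settings of the tests, those with a library left out among them, KRT8 and KRT19 lost their calls in 4 and KRT18 in 6. On the other strand USP37 overlaps 44.0% of the VIL1 exon bases, and KRT8 overlaps 16.3% of those of KRT18. USP37 gave 1211 and 1245 reads in control and 1438 and 1389 with IAA, where VIL1 gave 556 and 493, then 593 and 706.

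The stretches before the start sites of HEXIM1, HEXIM2 and SERTAD1 are shown because HEXIM1 and HEXIM2 lie near each other on chromosome 17 and gave changes of opposite sign, and because SERTAD1 had the largest change of the 7. They come from RefSeq on GRCh38.p14, cover at most the 250 bases before a start and leave out exons in the GENCODE 29 annotation. All are written 5′ to 3′ on the gene's own strand, with capitals at every TATAAA and CCAAT on either strand (CCAAT reads ATTGG on the other). HEXIM1 (chr17:45148225-45148474, plus strand) has 1 start, HEXIM2 has 2 (chr17:45159924-45160173 and chr17:45161625-45161844, plus strand), and SERTAD1 (chr19:40426026-40426242, minus strand) has 1.
HEXIM1: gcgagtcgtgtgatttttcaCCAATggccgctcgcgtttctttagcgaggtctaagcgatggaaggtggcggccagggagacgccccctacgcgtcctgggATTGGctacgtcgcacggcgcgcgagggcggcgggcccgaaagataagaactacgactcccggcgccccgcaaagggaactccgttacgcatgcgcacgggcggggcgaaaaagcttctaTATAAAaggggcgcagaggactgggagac
HEXIM2, the first start: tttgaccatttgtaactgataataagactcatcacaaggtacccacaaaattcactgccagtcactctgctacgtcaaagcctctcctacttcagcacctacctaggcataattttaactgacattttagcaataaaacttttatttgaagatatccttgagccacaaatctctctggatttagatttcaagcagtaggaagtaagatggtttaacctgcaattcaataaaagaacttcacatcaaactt
HEXIM2, the second start: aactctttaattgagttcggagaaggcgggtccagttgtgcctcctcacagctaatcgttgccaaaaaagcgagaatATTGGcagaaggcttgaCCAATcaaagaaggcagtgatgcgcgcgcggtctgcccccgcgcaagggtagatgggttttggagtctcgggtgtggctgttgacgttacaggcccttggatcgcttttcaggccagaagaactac
SERTAD1: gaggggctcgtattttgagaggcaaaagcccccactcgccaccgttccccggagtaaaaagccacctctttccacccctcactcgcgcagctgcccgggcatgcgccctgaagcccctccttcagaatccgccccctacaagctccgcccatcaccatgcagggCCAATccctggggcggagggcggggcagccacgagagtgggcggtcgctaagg
In HEXIM1 TATAAA began 29 bases before the start, and none of the other 13 windows of the 7 genes held it, against 10.7% of 35116 windows of 250 bases before RefSeq starts. CCAAT stood in 5 of the 14 windows and in 32.0% of all, among them HEXIM1, the second start of HEXIM2 and SERTAD1. GGGCGG, or CCGCCC on the other strand, was in 10 of the 14 windows and in 42.6% of all. It was in 6 of the 7 genes, with HEXIM2 the exception. Genes with several starts have more windows, and no share per gene was computed over all genes to set beside this. These matches describe the letters only.

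Per exon length BRD2 was the highest of the 7 genes in control cells, at 76.0 ± 1.18 reads scaled to library total and kilobases of exon (SD, n = 2). This scale is used because the FPKM divide by the whole gene, introns included, for most genes. It assumes that reads were counted over exons, which is not known from the sources at hand. HEXIM1 followed at 55.6 ± 1.18, SERTAD1 at 30.7 ± 0.202 and MEPCE at 28.0 ± 1.17. LARP7 stood at 16.8 ± 0.400, BRD3 at 9.68 ± 0.239 and HEXIM2 at 5.70 ± 0.129 on the same scale. No neighbours in this order overlapped between libraries, although SERTAD1 and MEPCE were close, at 30.6 and 30.9 against 27.1 and 28.8. By FPKM the order of SERTAD1 and MEPCE was the reverse, at means of 14.65 and 17.95 in control. The exon of HEXIM1 is 3600 bases long in the annotation, while its FPKM divides by 4785, and over that length it would be 41.8, still second in control. With IAA the order became BRD2 at 95.4 ± 2.81, SERTAD1 at 67.2 ± 2.77 and HEXIM1 at 65.5 ± 1.07, with the libraries of SERTAD1 and HEXIM1 overlapping (HEXIM1 would be 49.3 over the longer length, below both SERTAD1 libraries). BRDT, the testis form, had 0 or 1 read per library.

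**Figure D1:**
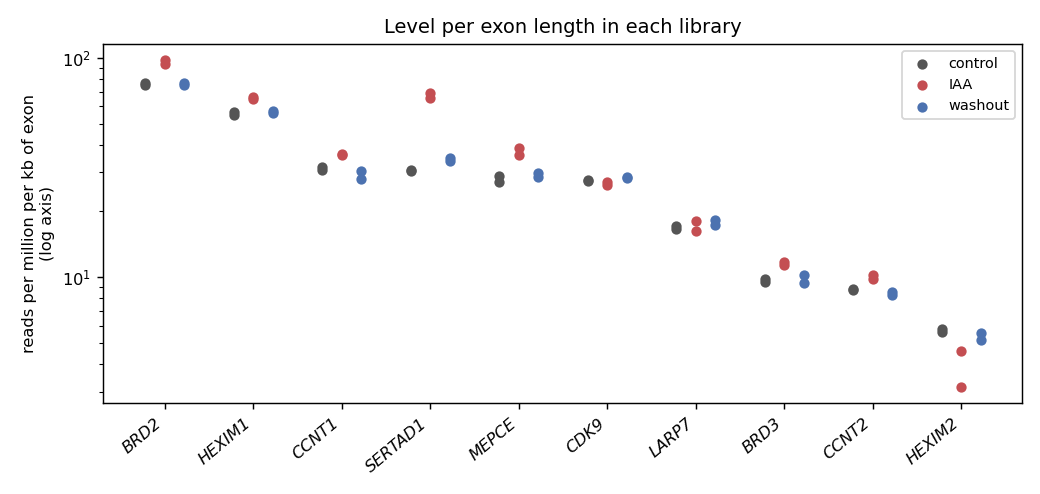
Reads scaled to library total and kilobases of exon (log axis) for BET, 7SK complex, P-TEFb and SERTAD1 genes, with 1 point per library and colours for the 3 groups. BRD2 is highest in every library, and of the IAA points of SERTAD1 1 (65.2) lies between those of HEXIM1 (64.7 and 66.2) and 1 (69.1) above both.

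IAA was compared with control to see which of these transcripts changed within 3 h. SERTAD1 rose 2.19-fold, MEPCE 1.34-fold, BRD2 1.25-fold and HEXIM1 1.18-fold, with both IAA libraries above both control libraries each time. These are 4 of the 7 genes called higher and 0 lower by limma on log2(FPKM + 1), at a Benjamini-Hochberg adjusted p under 0.05 over all genes tested. Over all 8317 genes 13.1% were called, 6.64% higher and 6.49% lower. The median log2 change was 0.23 over the 7 genes and 0.014 over all genes tested. Voom on reads recovered from the FPKM called 5 of the 7 higher and 1 lower, against 10.5% and 11.8% of 14857 genes (22.3% in all).

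**Figure D2:**
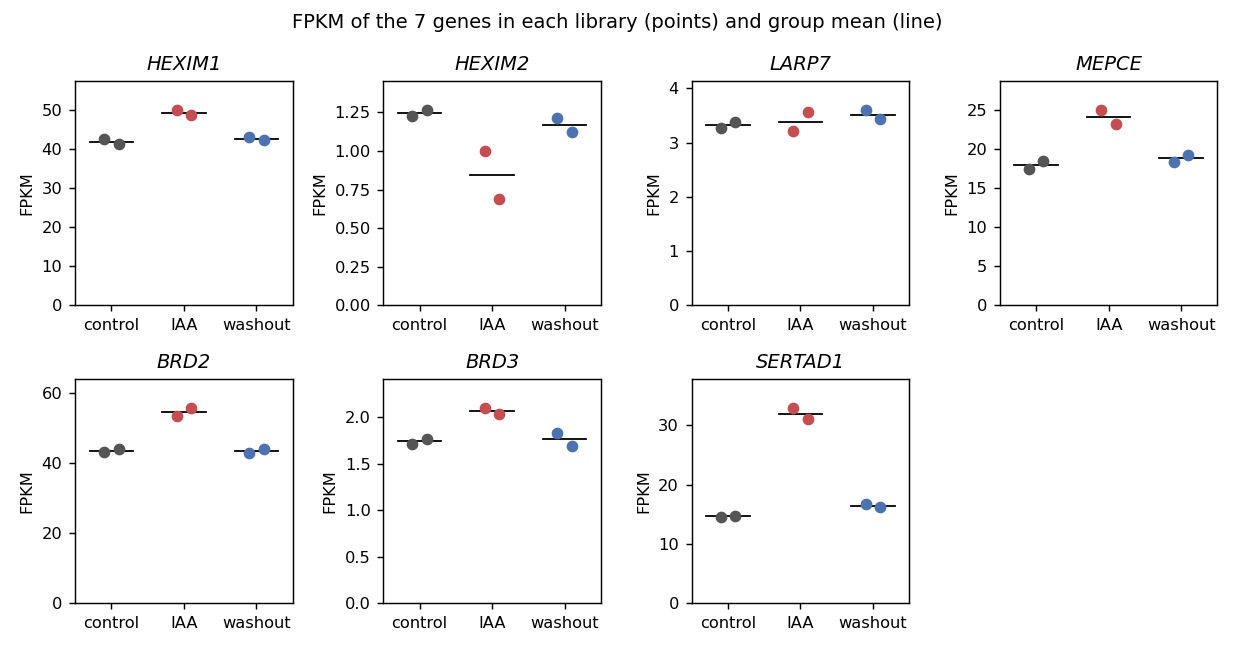
FPKM (vertical axes, from 0) of the 7 genes in each library by group, with points for libraries and lines for group means. The IAA points of HEXIM1, MEPCE, BRD2, BRD3 and SERTAD1 lie above all other points of the same gene, those of HEXIM2 lie below, and those of LARP7 overlap the control points.

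HEXIM1 (ENSG00000186834.2, 1 exon at chromosome 17, 45148502 to 45152101 on GRCh38) encodes the main 7SK-bound inhibitor of P-TEFb. Control libraries gave 42.4 and 41.2 FPKM, IAA libraries 49.8 and 48.7, and washout libraries 42.9 and 42.2. Only the IAA libraries were high. The log2 change with IAA was 0.23 (SE 0.039, limma adjusted p = 0.0286) and on recovered reads 0.21 (voom adjusted p = 0.00153). Among the 552 genes called higher it was 417th by size. Of the HEXIM1 exon bases 14.4% also lie in an antisense gene, and the strand counted is not stated.

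HEXIM2 (ENSG00000168517.6, chromosome 17, 45160700 to 45170040), the paralogue that can stand in for HEXIM1 on 7SK, had the opposite sign. The control libraries gave 1.225 and 1.264 FPKM, the IAA libraries 1.003 and 0.689, and the washout libraries 1.211 and 1.125, from 190, 198, 154, 108, 189 and 175 reads. Both IAA libraries were below the other 4, and they lay further apart than those of any other group. The difference was not called by limma (log2 change -0.29, SE 0.088, adjusted p = 0.102) and was called by voom (-0.61, adjusted p = 0.0147). Without IAA replicate 2 voom gave -0.34 (adjusted p = 0.263), and without control replicate 2 it gave -0.59 (adjusted p = 0.0755). Of the exon bases 50.3% also lie in an antisense gene, and whether counting used strand is not known from the sources at hand.

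Of all reads on the 2 HEXIM genes, HEXIM2 held 5.33% (95% Wilson interval 4.64 to 6.12) and 5.65% (4.94 to 6.47) in control. With IAA it held 3.78% (3.24 to 4.41) and 2.69% (2.23 to 3.24), and after washout 5.22% (4.54 to 5.99) and 4.95% (4.29 to 5.72). The intervals cover counting error only. Those of both IAA libraries lay below those of both control libraries, so HEXIM2 made up less of the pair in each IAA library, by different amounts.

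MEPCE (ENSG00000146834.9, chromosome 7, 100428790 to 100434126), the enzyme that caps and holds 7SK, gave 17.4 and 18.5 FPKM in the control libraries, 24.9 and 23.2 in the IAA libraries, and 18.4 and 19.2 in the washout libraries. Its log2 change with IAA was 0.40 (SE 0.057, limma adjusted p = 0.0206, and 3.76e-05 by voom). Of its exon bases 5.94% overlap ZCWPW1 on the other strand, which gave 79 and 80 reads in the control libraries and 127 and 140 in the IAA libraries, where MEPCE gave 1542 and 1651, then 2186 and 2072.

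LARP7 (ENSG00000174720.11, chromosome 4, 112636964 to 112657592), which protects the end of 7SK, gave 3.27 and 3.38 FPKM in the control libraries, 3.20 and 3.57 in the IAA libraries, and 3.60 and 3.43 in the washout libraries. The IAA libraries lay on both sides of the control libraries. The log2 change was 0.02 (95% interval -0.12 to 0.16, limma adjusted p = 0.835). Of the 4 genes of the 7SK complex, limma thus called HEXIM1 and MEPCE only. Of the LARP7 exon bases 7.4% overlap an antisense gene (MIR302B in the table), which had 272 to 341 reads per library.

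BRD2 (ENSG00000204256.8, chromosome 6, 32968660 to 32981505) gave 43.0 and 43.9 FPKM in the control libraries, 53.3 and 55.6 in the IAA libraries, and 42.7 and 44.0 in the washout libraries. The IAA libraries stood apart from the other 4. Its log2 change was 0.32 (SE 0.042, limma adjusted p = 0.0177, and 3.09e-06 by voom). Of the BRD2 exon bases 7.86% overlap an antisense gene and 3.31% a gene on the same strand. BRD3 (ENSG00000169925.12, chromosome 9, 134030305 to 134068535) gave 1.71 and 1.77 FPKM in the control libraries, 2.10 and 2.04 in the IAA libraries, and 1.83 and 1.69 in the washout libraries, so only the IAA libraries were high. It was not called by limma (log2 change 0.16, SE 0.041, adjusted p = 0.0664) and was called higher by voom (0.22, adjusted p = 0.0184). Without control replicate 1, control replicate 2 or IAA replicate 1, voom gave BRD3 adjusted p-values of 0.130, 0.0544 and 0.104. BRD3 held 9.82% to 11.3% of BRD2 and BRD3 reads over the 6 libraries. Of the BRD3 exon bases 18.6% overlap LINC00094 on the other strand, which had 499 to 578 reads per library.

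SERTAD1 (ENSG00000197019.4, chromosome 19, 40421592 to 40426025), a partner of CDK4 and of E2F factors, had the largest change of the 7. Control libraries gave 14.6 and 14.7 FPKM, IAA libraries 33.0 and 31.1, and washout libraries 16.7 and 16.2, and no group overlapped another. The log2 change was 1.08 (SE 0.046, limma adjusted p = 0.00205) and on recovered reads 1.10 (voom adjusted p = 1.53e-11). It was 14th by size among the 552 genes called higher.

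**Figure D3:**
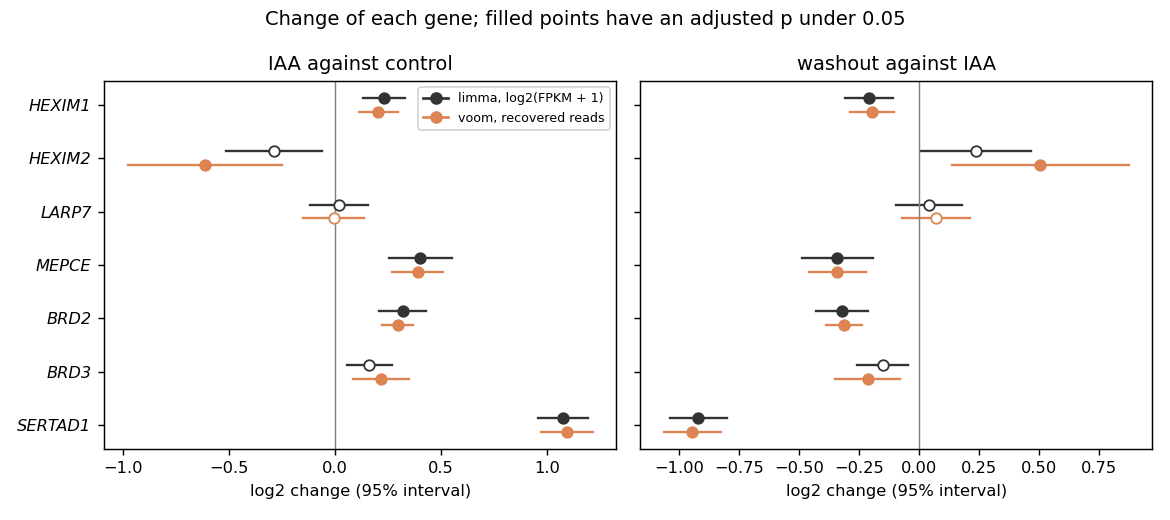
Log2 change (horizontal axes) of each gene with its 95% interval, for IAA against control and washout against IAA, by limma on log2(FPKM + 1) and by voom on recovered reads. Filled points have an adjusted p under 0.05, and SERTAD1 stands farthest from 0 in both panels (1.08 and -0.92 by limma).

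Leaving out libraries showed how far each call depends on them. SERTAD1 kept its limma call without each of the 6 libraries (adjusted p 0.0154 to 0.0363). HEXIM1 lost it without any 1 of the 6 (0.0617 to 0.133). MEPCE and BRD2 kept it without either washout library and lost it without either control or either IAA library, where adjusted p ran from 0.0744 to 0.0989 for MEPCE and from 0.0784 to 0.0943 for BRD2. In these fits the lone library of a group is assumed to vary like the others. Of 21 alternative settings, those with a library left out among them, HEXIM1 lost its call in 8, MEPCE in 5, BRD2 in 4 and SERTAD1 in 0. On recovered reads HEXIM1, MEPCE, BRD2 and SERTAD1 were called higher without each of the 6 libraries, with adjusted p-values of at most 0.0317.

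The P-TEFb subunits showed no call with IAA by limma. CDK9, the kinase, stood at 16.2 ± 0.0549 FPKM in control and 15.7 ± 0.369 with IAA (SD, n = 2, limma adjusted p = 0.451). CCNT1 was at 8.13 ± 0.202 and 9.40 ± 0.0768 (limma adjusted p = 0.0680, n = 2), and voom called it higher (adjusted p = 0.00703, but 0.0895 without control replicate 2). CCNT2 was at 1.94 ± 0.0167 and 2.21 ± 0.0676 (n = 2, limma adjusted p = 0.0809). RN7SK, the 7SK RNA itself, had 0 or 2 reads per library. It lacks the poly(A) tail by which the RNA was selected, so its level was not measured here.

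Of 13 tested genes in a list of factors that release or replace P-TEFb on 7SK, 6 were called lower with IAA and 0 higher by limma, against 6.49% and 6.64% of all genes tested. The list also holds BCDIN3D, a relative of MEPCE rather than such a factor, which was not called by limma or voom. Voom called 8 of 14 lower and 0 higher, against 11.8% and 10.5%, adding PPP3CA and HNRNPA2B1 (whose recovered reads share a factor of 3), named after their values were seen. HNRNPDL fell to 0.689 of its control FPKM, SYNCRIP to 0.712, DDX21 to 0.792, SRSF2 to 0.799, HNRNPR to 0.817 and SRSF1 to 0.819. HNRNPDL, SYNCRIP and HNRNPR are RNA-binding proteins found on 7SK, DDX21 is a helicase that frees P-TEFb from it, and SRSF1 and SRSF2 are splicing factors. The median log2 change over all 13 was -0.10. Without either control or either IAA library all 6 lost the limma call (adjusted p up to 0.158), SRSF2 also without either washout library and with no filter, while voom called each of them lower without each library. In GENCODE 29, 56.6% of the exon bases of SRSF1 overlap exons of AC015813.2 and 4.18% of those of SYNCRIP overlap AL589666.1, both on the same strand. For SRSF2, 36.7% overlap MFSD11 on the opposite strand, and reads of such pairs may not be told apart.

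Among the targets of P-TEFb in pausing, 1 of 7 tested genes was called (against 13.1% of all genes tested), POLR2A, the largest subunit of RNA polymerase II, at 10.7 and 11.0 FPKM in control and 15.4 and 15.3 with IAA (log2 change 0.46, SE 0.037, limma adjusted p = 0.00768). None of the 9 tested genes for BET partner proteins was called with IAA by limma. Voom called MED13 higher and CHD4, E2F2 and ZMYND8 lower of 14, against 10.5% and 11.8% of all genes tested (22.3% in all). These genes were named after their values were seen. In the SERTAD family limma called 2 of 4 tested genes higher, SERTAD1 itself being 1 of them, against 6.64% of all genes tested. SERTAD3, a relative of SERTAD1, went from 2.82 and 2.72 FPKM to 5.13 and 4.32 (log2 change 0.60, SE 0.089, limma adjusted p = 0.0227), and SERTAD2 was at 1.71 ± 0.0189 and 1.82 ± 0.00208 (n = 2, limma adjusted p = 0.346). Without either control or either IAA library POLR2A (limma adjusted p up to 0.0670) and SERTAD3 (up to 0.118) lost their calls, and SERTAD3 also did with no filter on low values.

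Of 11 tested protein partners of SERTAD1 and HEXIM1, 1 was called higher and 1 lower by limma (13.1% of all genes tested were called). Voom called 2 of 14 higher, CDKN1A and CREBBP, and 4 lower, CCND1, CDK4, NPM1 and TFDP1, against 10.5% and 11.8%; CREBBP, NPM1 and TFDP1 were named after their values were seen. CDKN1A, the p21 inhibitor, rose 1.36-fold (limma adjusted p = 0.0092), and CCND1, the cyclin D1 that pairs with CDK4, fell to 0.623 (adjusted p = 0.00402). In the annotation 10.3% of the exon bases of CCND1 overlap LTO1 (ORAOV1 in the table) and 43.2% of those of CDK4 overlap TSPAN31, both on the opposite strand. A list of transcripts known to respond to BET inhibitors had 5 of 15 genes tested. Limma called 2 of the 5 higher, HEXIM1 and SERTAD1, both among the 7 genes, against 6.64% of all genes tested. It called 1 lower, MYC, which fell to 0.570 (limma adjusted p = 0.00297), against 6.49%, and did not call the other 2. The median log2 change over the 5 was -0.051, and 0.014 over all genes tested. CCND1 and MYC kept their calls without each library, and CDKN1A lost its call without either control or either IAA library (limma adjusted p up to 0.0719). Voom tested 10 of the 15 and called 3 higher and 2 lower, against 10.5% and 11.8% of all genes tested. It added ZCCHC24 as higher (2.33-fold, voom adjusted p = 1.05e-06) and ZMYND8 as lower (0.744, voom adjusted p = 0.000114), 2 genes named after their values were seen.

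**Figure D4:**
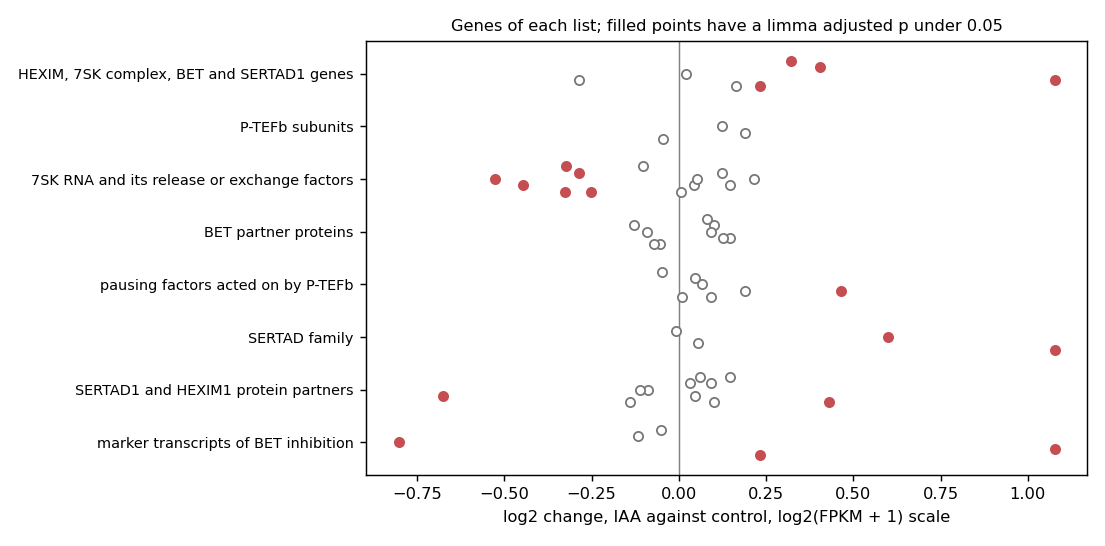
Log2 change with IAA against control (horizontal axis, log2(FPKM + 1) scale) of every tested gene in the 8 lists, with filled points for a limma adjusted p under 0.05. The 6 filled points of the 7SK release factors lie below 0, between -0.53 and -0.25, while the 4 of the HEXIM, 7SK complex, BET and SERTAD1 genes lie above it.

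The comparison of washout with IAA asked what followed once IAA was removed, and it shares the IAA libraries with the comparison above. No untreated cells were washed and cultured for 48 h in the same way. Removal of IAA, the wash and the time in culture therefore cannot be told apart, here or in the comparison of washout with control. By limma 4 of the 7 genes were called lower and 0 higher, against 6.65% and 7.73% of all genes tested (14.4% in all). SERTAD1 fell to 0.513 of its FPKM with IAA (log2 change -0.92, SE 0.046, adjusted p = 0.0033), MEPCE to 0.781 (adjusted p = 0.0279), BRD2 to 0.797 (adjusted p = 0.0178) and HEXIM1 to 0.863 (adjusted p = 0.0347). The median log2 change was -0.21 over the 7 genes and -0.00044 over all. HEXIM2 stood at 1.38 times its FPKM with IAA (limma adjusted p = 0.141) and BRD3 at 0.853 times (limma adjusted p = 0.0753). Voom called 5 of the 7 lower and 1 higher, with HEXIM2 at 0.0433 and BRD3 at 0.0189, against 11.7% and 12.2% of all genes tested (23.9% in all). LARP7 was not called by either.

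Without each library in turn, SERTAD1 kept its limma call (adjusted p 0.0227 to 0.0403), and HEXIM1 (0.0714 to 0.149), MEPCE (0.0591 to 0.117) and BRD2 (0.0513 to 0.0905) lost it in all 6 cases. On recovered reads these 4 were called lower in all 6. HEXIM1 also lost its limma call with FPKM rescaled to TPM (adjusted p = 0.0634), and MEPCE lost it with no filter on low values (0.0606). For HEXIM2 voom kept the call only without IAA replicate 1, with adjusted p up to 0.468 without IAA replicate 2. For BRD3 it lost the call without IAA replicate 1 (0.105) and without washout replicate 2 (0.166).

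The cyclins of P-TEFb fell after washout by limma, CCNT1 to 0.807 (adjusted p = 0.0289) and CCNT2 to 0.842 (adjusted p = 0.0424) of the FPKM with IAA, and CDK9 stood at 1.07 times (adjusted p = 0.178). Of the 13 tested genes in the list of 7SK release factors 4 rose, HNRNPDL 1.42-fold, SYNCRIP 1.37-fold, HNRNPR 1.19-fold and SRSF1 1.17-fold. None fell by limma, against 7.73% of all genes tested called higher and 6.65% lower. Voom called 7 of 14 higher and 0 lower, against 12.2% and 11.7% of all genes tested. With TPM scaling 5 of 13 were called higher and 0 lower. Of all calls 66.6% were higher under that scaling, against 53.8% without it. POLR2A fell to 0.724 (limma adjusted p = 0.00871). Of 9 tested BET partners limma called 1, E2F2, which rose 1.35-fold (adjusted p = 0.0152), against 14.4% of all genes tested. Voom called 3 of 14 BET partners higher and 3 lower, against 12.2% and 11.7% of all genes tested. CCND1 rose 1.54-fold, CDK4 1.20-fold and MYC 1.63-fold, and CDKN1A fell to 0.688. SERTAD3 stood at 0.725 times its FPKM with IAA (limma adjusted p = 0.0596, voom adjusted p = 0.0184). Of 5 genes of the SERTAD family voom called 2 lower, SERTAD1 and SERTAD3, and 2 higher, against 11.7% and 12.2% of all genes tested. The 2 called higher were SERTAD4 (1.81-fold, voom adjusted p = 0.000375) and CDCA4 (1.12-fold, voom adjusted p = 0.04485), named after their values were seen. Of the limma calls named in this comparison of washout with IAA for these other genes, that of MYC was kept without each library. CCNT1, CCNT2, HNRNPR, SRSF1 and CDK4 lost theirs without any 1 of the 6 (adjusted p up to 0.159), CCNT2 also with TPM scaling (0.0801), and CCNT1, CCNT2 and CDK4 also with no filter on low values. HNRNPDL, SYNCRIP, POLR2A and E2F2 did without either IAA or either washout library (up to 0.0836). CCND1 did without IAA replicate 2 or washout replicate 1 (up to 0.0522), and CDKN1A did without those or IAA replicate 1 (up to 0.0544). By voom all of them were called without each library, except CCNT2 without IAA replicate 2 (adjusted p = 0.0705).

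Between washout and control 0 of the 7 genes and 0 of 8317 genes were called by limma (0%), with 750 genes at an unadjusted p under 0.05 and a smallest adjusted p of 0.23. Voom called 74 of 14857 genes (0.498%, with 0.155% higher and 0.343% lower) and 0 of the 7. SERTAD1 was above control in both washout libraries, at 1.12 times the control FPKM (log2 change 0.16, 95% interval 0.037 to 0.27, limma adjusted p = 0.524). For HEXIM1 the log2 difference was 0.02 (-0.08 to 0.12), for MEPCE 0.06 (-0.09 to 0.21), for BRD2 -0.0014 (-0.11 to 0.11), and for BRD3 0.01 (-0.09 to 0.12). HEXIM2 was below control and LARP7 above it in both washout libraries, with differences of -0.05 (-0.28 to 0.18) and 0.06 (-0.08 to 0.20). These intervals are from limma and do not show that the levels are equal.

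For each of the 4 genes called with IAA, the tested genes with the most similar pattern were found among 3349 others whose mean FPKM was at least 5, by the root mean square difference of log2(FPKM + 1), centred on each gene's mean over the 6 libraries. HADHAP1, PPP1R15B and C5orf45 were nearest to HEXIM1 (0.016 to 0.022), and ZKSCAN1, ZFP36 and GCC1 to MEPCE (0.034 to 0.042). NRBP1, TOPORS and NFE2L1 were nearest to BRD2 (0.021 to 0.026). OVOL1, BTG1 and PPP1R15A were nearest to SERTAD1, at 0.044, 0.086 and 0.098, and their mean FPKM with IAA was 2.45, 2.39 and 1.89 times that in control.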

How the data were processed

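The authors deposited 1 table of FPKM for 31628 genes in 6 libraries. Per the labels' protocols, poly(A) RNA was captured on oligo(dT) beads and reverse transcribed with random primers. Per the submitters' processing notes, HISAT, Bowtie2, HTSeq and edgeR were used on hg19, and their versions, roles, the annotation and the strand counted are not stated there. Of the genes, 94.3% matched GENCODE 29, a GRCh38 annotation from which positions, exon lengths and overlaps were taken. The deposited FPKM divide by the whole gene span for 74.0% of genes above 0. Whole reads and library totals were recovered from the low values: of 21707 genes, 74.0% came out whole within 0.02 reads with the annotated span. For 5636 others, HEXIM1 and MEPCE among them, the length was solved from the ratios between libraries so that reads are whole (99.98% with these), and such reads can be a multiple of the true ones. Of 4137 such genes with at least 60 reads, 467 had reads with a factor common to all 6 libraries, none of them among the 7 genes. Recovered reads summed to 105.27% to 106.93% of the totals.

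The limma package (3.58.1, under R 4.3.3) was applied to log2(FPKM + 1) of genes averaging at least 1 FPKM, with 1 fit for the 3 groups, a trend in the prior variance, 3 residual and 1.81 prior degrees of freedom, and two-sided Benjamini-Hochberg adjustment over all genes tested. Folds are ratios of mean FPKM, and the log2(FPKM + 1) scale understates changes of low genes. Limma's voom was run on recovered reads of genes with at least 60 reads, with TMM factors, and was tested with the limma fit on simulated data. Other alternatives were the pseudocount, the filter, TPM scaling, a replicate block, only the groups compared, and leaving out each library. Leaving out libraries in voom and dividing solved reads by their common factor were added after the data were seen. Named genes were the 7 genes, CDK9, CCNT1, CCNT2, RN7SK, SERTAD2, SERTAD3, MLLT1, list genes called in either IAA comparison, and the 3 genes nearest in pattern to each called gene. 1 other gene of this rule is not reported here. The 7 genes, the lists and the motifs were chosen with earlier results of these data known, and the lists support nothing independently. Lists were described by counts, with no test. Protein sequences were not used here. Columns of other samples numbered 0.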

Additional observations from a re-analysis of the deposited data

How the results depend on the processing

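With FPKM kept, other pseudocounts, TPM scaling and other filters left the direction of the 4 called genes in both IAA comparisons. Genes called numbered 1092 with IAA against control, 501 at a mean FPKM of at least 5 (3350 genes tested), 536 with only the groups compared and 3314 by voom on recovered reads. For washout against IAA they numbered 1196, then 548, 413 and 3547, and for washout against control 0, with 48 under no filter and 74 by voom. Only the groups compared left 1 of the 7 genes called for washout against IAA. With solved reads divided by their common factor, voom called 3515, 3762 and 101 genes, and as many of the 7 genes as without this division. Leaving out each library gave 50 to 534, 46 to 421 and 0 genes by limma, and 2045 to 3459, 2503 to 3425 and 15 to 102 by voom. The 7 genes then had 1 to 3 calls (IAA against control) and 1 call (washout against IAA) by limma, and 4 to 6 and 4 to 5 by voom. TPM scaling moved the share of higher calls from 50.5% to 38.8% with IAA and from 53.8% to 66.6% after washout. The cause of these differences was not tested. Fits that leave some genes or libraries out also hold fewer of them, and the part of this was not tested either.

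Replicate numbers did not pair the libraries (correlations of deviations 0.0432, -0.0269 and 0.00601). A replicate block gave 486 and 532 genes called and 2 of the 7 genes in each IAA comparison, SERTAD1 and BRD2. LARP7 changed sign with IAA under TPM scaling (-0.0070) and voom (-0.0058, and -0.0057 with reads divided by their common factor). When libraries were left out it ranged from -0.040 to 0.080 by limma and from -0.087 to 0.074 by voom. For washout against IAA, LARP7 ranged from -0.019 to 0.10 and from -0.010 to 0.15. Against control, BRD2 was at 0.0054 under TPM scaling. Left-out libraries moved BRD2 from -0.023 to 0.020 by limma and from -0.045 to 0.011 by voom, BRD3 from -0.025 to 0.049 and from -0.048 to 0.054, and HEXIM1 from 0.0029 to 0.045 and from -0.011 to 0.029. No sign change was of a called value. HEXIM2 rests on 108 to 198 reads per library.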
